A study of Homo sapiens with 8 samples.

Results

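Transcript levels after BRAF knockdown in the absence of glutamine were compared in A375, an established human melanoma line with an activating mutation of BRAF. The arrays were chosen by their treatment labels, siBRAF/GlnF for an siRNA against BRAF and siCont/GlnF for a nontargeting siRNA, which name 2 of the 8 arrays of the study, 1 for each condition. Both cultures were transfected and then kept for 18 h in RPMI1640 without glutamine, with 10% fetal bovine serum and kanamycin. The same 2 siRNAs in normal RPMI1640 with the same serum, siBRAF/Normal and siCont/Normal, also with 1 array each, gave a pair with no array in common, and its values are set beside the first. The remaining 4 arrays, with an siRNA against ATF4 or with DMSO or the BRAF inhibitor vemurafenib, were not compared here. The labels do not say how many siRNA sequences were used against BRAF.

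BRAF is the kinase that starts the cascade from BRAF through MEK to ERK, and its mutant form in melanoma keeps ERK active without a signal from outside. Active ERK switches on immediate early transcription factors, growth and inflammatory genes, and a set of phosphatases and adaptors that damp the cascade in turn. Glutamine supplies nitrogen for asparagine, other amino acids and nucleotides. When amino acids run short, the kinase GCN2 slows translation and raises translation of ATF4, a transcription factor that turns on genes for amino acid synthesis, amino acid uptake and tRNA charging, and CHOP, encoded by DDIT3, acts beside it in prolonged stress.

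Values are microarray intensities on a linear scale, and each difference is that of log2(intensity + 1), siBRAF minus siCont, a scale on which differences of dim genes come out too small. For each gene 1 probe set was used, and the gene entered a comparison when the higher of its 2 values reached the array median, the 50th percentile. A gene was counted as higher or lower when its values were at least 2-fold apart, and folds are of intensity + 1. Where the mean log2 difference over all probe sets of a gene lay more than 1.5 times nearer to 0, it is given as the probe set mean, or other probe sets are given. Genes named only in contrast or to complete a count do not all carry such a value. With 1 array per condition no difference has a replicate check, so none was tested, no spread between cultures is known, and every statement describes these arrays. The median intensity was 14.76 on the siCont and 15.25 on the siBRAF glutamine-free array, and values below it are called below the array median. Probe sets of 1 gene differed among themselves by a median SD of 0.27 on the log2 scale. For the actin control probes the 3′ end exceeded the 5′ end by 0.28 on the siCont glutamine-free array and by 0.16 to 0.18 on the other 3 arrays of the 2 media, and the part of this in the results was not tested.

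BRAF itself was not analysed here, so the siBRAF label was not checked on its target. The 2 siBRAF arrays, without and with glutamine, were nearly alike, with 16 of 13138 genes (0.122%) at least 2-fold apart. That the siBRAF/GlnF culture lacked glutamine rests on its label alone and was not checked here, and this bears on every value set between the media. Its paralog ARAF read 369 with siCont and 164 with siBRAF without glutamine, a difference of -1.17, which was -0.46 as the mean of its probe sets. Of 11 melanocytic markers 9 reached the array median with siCont and 8 with siBRAF, and their summed intensity was 3775 and 5953. MITF (417 and 567) and SOX10 (1117 and 957), the defining transcription factors of the lineage, were well above it on both arrays, while the pigment genes MLANA and TYRP1 lay below it on both. Markers of leukocytes and endothelium stayed low, with summed intensities of 132 and 74.2 for 5 leukocyte markers and 64.9 and 63.6 for 5 endothelial ones. The 8 fibroblast markers summed to 214 with siCont and 641 with siBRAF, mostly through 1 of the 2 probe sets of LUM. Of 6 keratinocyte markers KRT5, KRT14 and KRT10 reached the median on both arrays, with sums of 2356 and 1712.

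Of 13496 genes, 1729 (12.8%) were at least 2-fold higher with siBRAF and 1464 (10.8%) at least 2-fold lower, so 23.7% of all genes lay past this fold. The counts past 4-fold were 474 (3.51%) and 336 (2.49%). The siCont value was below the array median for 357 (20.6%) of the 1729 higher genes and the siBRAF value for 161 (11%) of the 1464 lower genes, and the size of those differences depends on background. The shares of 12.8% and 10.8% are the background for the gene lists that follow. The lists with the lowest medians held cytokines, ERK-driven regulators, ERK feedback genes, the ATF4 and CHOP response and mitosis. Those with the highest held cadherins, FOXO targets, interferon-stimulated genes and p53 targets.

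**Figure D1:**
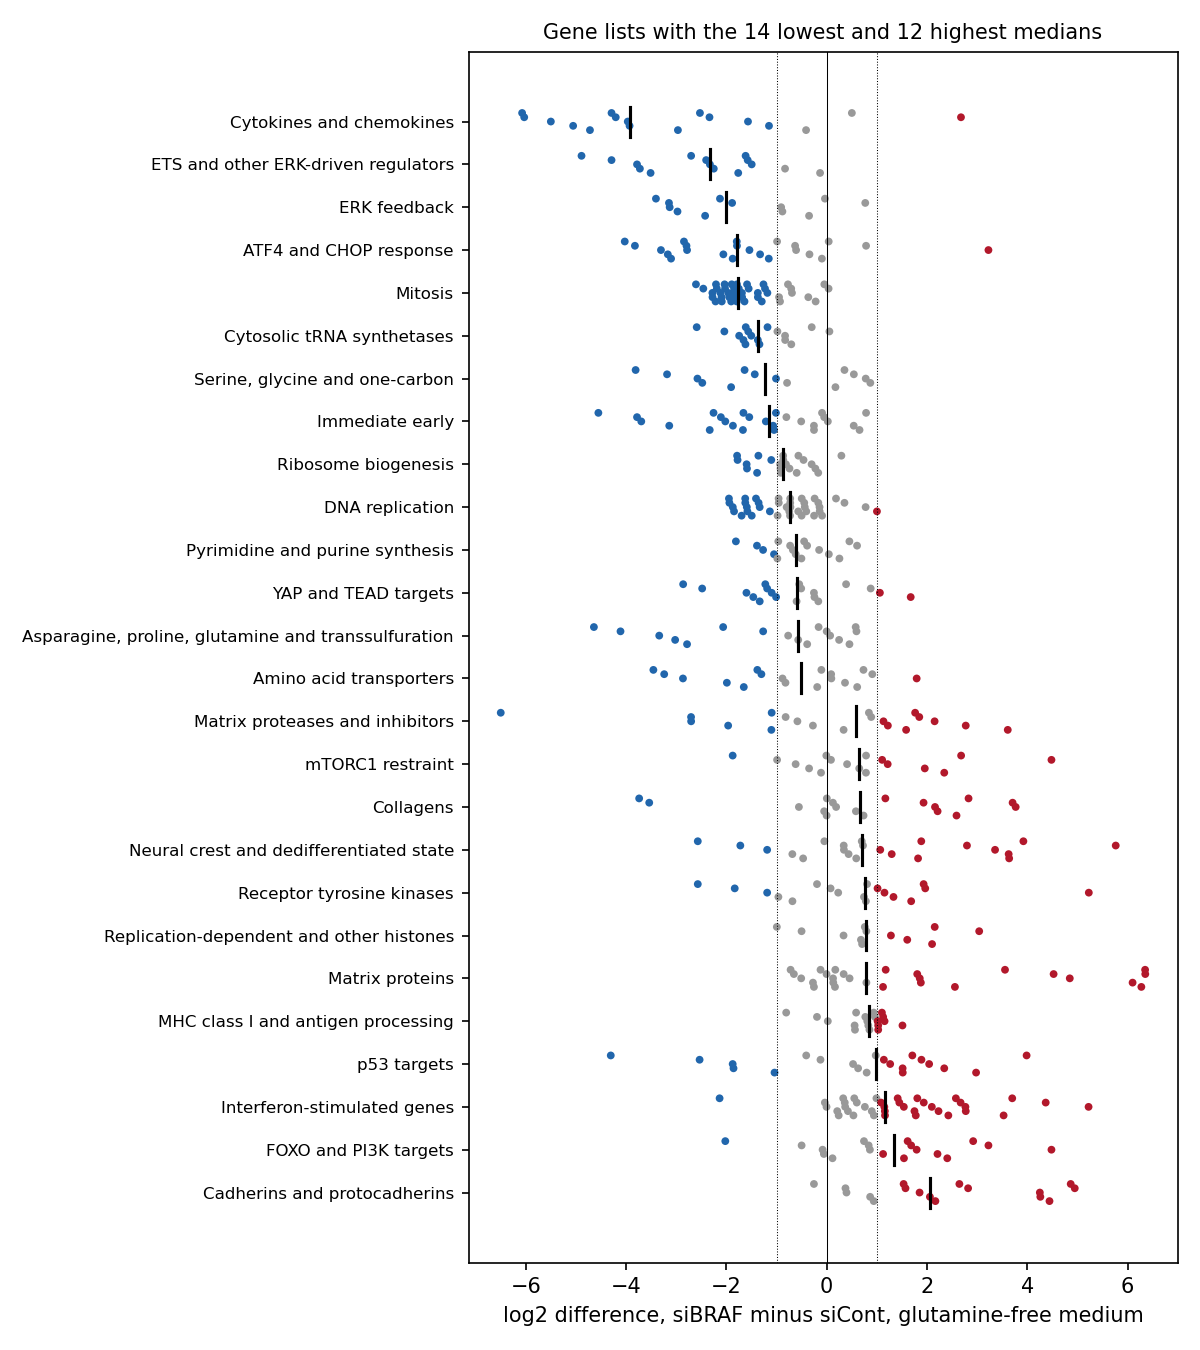
Each point is a gene, placed by its log2 difference between siBRAF and siCont in glutamine-free medium (x axis, 1 array each), in the 14 gene lists with the lowest and the 12 with the highest medians (y axis). Blue points are at least 2-fold lower, red points at least 2-fold higher and grey points within 2-fold; black bars are list medians, from -3.93 for cytokines and chemokines to 2.06 for cadherins and protocadherins.

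Several genes that feed back on ERK were lower with siBRAF. Among 12 feedback genes, 7 passed the 2-fold line downward and 0 upward (median -2.01, against 0.02 over all genes tested). ERRFI1, an inhibitor of the EGF receptor, read 4544 with siCont and 428 with siBRAF, a difference of -3.41. The ERK phosphatase gene DUSP6 read 2740 and 312 (-3.13), and SPRY4, a Sprouty inhibitor of the cascade, read 365 and 40.4 (-3.15). In normal medium 8 of the same 12 were lower, with a median of -1.46.

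Members of this group did not share 1 pattern across media. DUSP5, a nuclear ERK phosphatase, read 757 with siCont and 95.4 with siBRAF without glutamine (-2.98), but 144 and 116 in normal medium (-0.31). DUSP4, a close relative, showed the opposite order, with 307 and 240 without glutamine (-0.35) against 1123 and 297 in normal medium (-1.91). IL17RD, a membrane inhibitor of the pathway, read 16.2 and 28.3 without glutamine (0.77) and 190 and 34.5 in normal medium (-2.43). Its other probe set lay below the array median on both glutamine-free arrays (-0.02). For these 3 genes the siBRAF values were close in the 2 media, and the siCont values were not.

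Of 15 ETS factors and other ERK-driven regulators 13 were lower and 0 higher (median -2.33, and -1.54 in normal medium). MYC, the growth-promoting transcription factor, read 1321 with siCont and 43.6 with siBRAF, 29.6-fold lower, and 133 and 45.5 in normal medium (-1.52). The ETS factors ETV4 (352 and 25.7) and ETV5 (333 and 28.3) were 13.2-fold and 11.4-fold lower, with differences of -3.47 and -3.23 in normal medium. FOSL1, the FOS relative that accumulates when ERK is active, read 1082 and 77.7 (-3.78). PLAUR, the receptor of the urokinase plasminogen activator, read 952 and 145 (-2.70), and -1.56 by its probe set not shared between transcripts. The 2 members within 2-fold were the chromatin protein gene HMGA2 (-0.83) and the ephrin receptor gene EPHA4 (-0.13). HMGA2 has dimmer probe sets too, and those that reached the array median with siCont gave -1.10 to -2.46.

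Immediate early genes differed more between the media than the feedback genes did in count, a difference that was not tested. Of 26 members 16 were lower and 0 higher without glutamine (median -1.14), while in normal medium 3 of 25 were lower and 6 higher (median 0.02), beside backgrounds there of 7.61% lower and 7.16% higher. EGR1, a zinc finger factor induced within minutes of ERK activation, read 3403 with siCont and 144 with siBRAF, 23.5-fold lower. In normal medium it read 95.6 and 170, so the siCont glutamine-free array stood apart from the other 3. FOS showed the same order, with 179 and 19.4 without glutamine (-3.14) and 23.4 and 23.7 in normal medium (0.02). EGR3 read 541 and 40.8 (-3.70), and IER2, an immediate early nuclear protein gene, 4011 and 838 (-2.26).

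JUN and ATF3 were on the same list and did not follow EGR1. JUN read 3049 with siCont and 2858 with siBRAF without glutamine (-0.09), and 243 and 3058 in normal medium (3.65). ATF3, a stress-induced repressor, read 551 and 950 (0.78), and 28.7 and 738 in normal medium (4.63). For both genes 3 arrays were high and only the siCont array in normal medium was low, whereas for EGR1 and FOS only the siCont glutamine-free array was high.

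**Figure D2:**
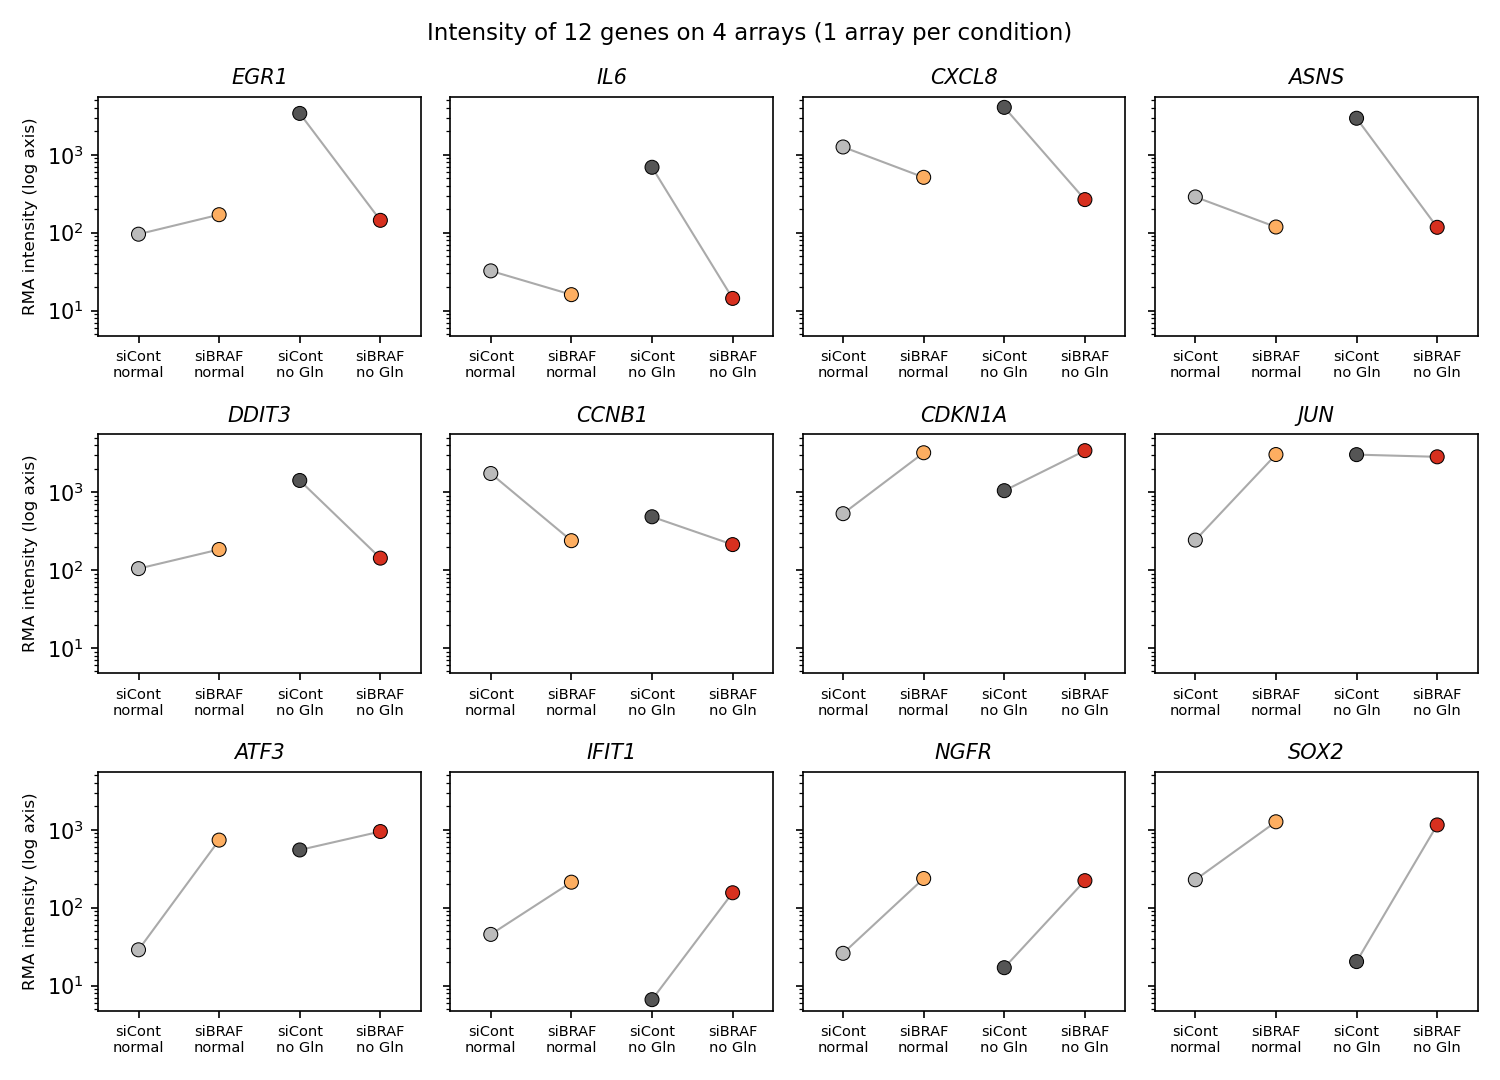
Intensity (y axis, log scale) of 12 genes on 4 arrays, 1 array per condition, with lines joining siCont to siBRAF within a medium. EGR1, IL6, ASNS and DDIT3 were high on the siCont glutamine-free array, JUN and ATF3 were low on the siCont array in normal medium, and the 2 siBRAF arrays were within 2-fold of each other in all 12 panels.

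Upstream members of the cascade stayed mostly within 2-fold, as did most genes tested. Of 14 adaptors and kinases measured, 2 were lower and 0 higher, beside 10.8% and 12.8% of all genes. The 2 lower genes were EGFR and ARAF. The median of the list was 0.09, and the adaptor gene SHC1 read 2783 with siCont and 3187 with siBRAF (0.20). MAP2K1 and MAPK3, which encode MEK1 and ERK1, were at -0.55 and 0.45.

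Secreted inflammatory genes had the lowest median of any list. Of 17 cytokine and chemokine genes 14 were at least 2-fold lower and 1 was higher, with a median of -3.93, while in normal medium 8 of 16 were lower and 1 higher (median -1.08). IL11, an IL6-family cytokine, read 1748 with siCont and 25.7 with siBRAF, 65.4-fold lower. IL6 itself read 692 and 14.3 (-5.50), with the siBRAF value below the array median. CXCL8, the neutrophil-attracting chemokine also called IL8, read 4071 and 266, 15.3-fold lower. IL24, a cytokine first found in melanoma cells, read 5990 and 226 (-4.72), and LIF 1408 and 71.0 (-4.29).

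The siCont glutamine-free array carried the highest value of each of these genes. In normal medium IL6 read 32.3 with siCont and 15.98 with siBRAF (-0.97), IL24 157 and 87.6 (-0.83), and CXCL8 1261 and 514 (-1.29). TSLP, an epithelial alarm cytokine, read 253 with siCont without glutamine and between 5.93 and 7.61 on the other 3 arrays, all 3 below their array medians. IL1A read 656 and 34.6 (-4.21) by its probe set shared between transcripts, and its other probe set lay below the median on both arrays (-0.12). IL1RL1, the IL33 receptor, read 562 and 7.36 (-6.07), with the siBRAF value below the median, and its 3 probe sets not shared between transcripts ran from -1.60 to 0.21. CCL2, which attracts monocytes, was the 1 higher gene on this list, at 149 with siCont and 961 with siBRAF (2.68). In normal medium CCL2 read 172 and 991 (2.52). The chemokine gene CXCL10, counted with the interferon-stimulated genes below, was higher too, at 15.4 and 55.2 without glutamine (1.78).

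Among 6 EGF family ligands 2 were lower and 1 higher. HBEGF, which is shed to activate the EGF receptor, read 587 with siCont and 121 with siBRAF (-2.27, probe set mean -1.34), and 108 and 106 in normal medium. EGF read 5.85 and 117 (4.11), from a siCont value below the array median. NRG1 was at -1.11, and at -0.30 as the mean of its probe sets.

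Receptor tyrosine kinases lay on both sides. Of 18 measured, 7 were at least 2-fold higher and 3 lower (median 0.76), and in normal medium 2 of 19 were higher and 2 lower (median 0.07). The 3 lower genes were EGFR (189 and 31.1, -2.57, probe set mean -1.003), the hepatocyte growth factor receptor gene MET (2326 and 652, -1.83) and AXL (2983 and 1309, -1.19). NTRK2, the BDNF receptor, read 2.96 with siCont and 147 with siBRAF (5.23, probe set mean 1.66), from a value below the array median, and 4.19 and 128 in normal medium. FGFR3 read 25.1 and 101 without glutamine (1.96, probe set mean 1.28) and 72.9 and 76.1 in normal medium (0.06). ERBB3, which pairs with ERBB2 to bind neuregulin, read 251 and 808 (1.68, or 0.77 as the mean of its probe sets), and 652 and 821 in normal medium (0.33). IGF1R read 197 and 439 (1.15), and 365 and 382 in normal medium (0.07). Its other probe sets ran from -0.69 to 0.86 without glutamine, and the brightest of those read 301 and 210 (-0.52). For FGFR3, ERBB3 and IGF1R the siCont glutamine-free array was the lowest of the 4.

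Genes of the ATF4 and CHOP response were lower with siBRAF without glutamine. Of 23 members 15 were at least 2-fold lower and 1 was higher (median -1.79), and in normal medium 6 were lower and 4 higher (median -0.14). ATF4 itself was at -1.54 and read 4360 and 1498. TRIB3, a pseudokinase induced by ATF4 and CHOP, read 3078 with siCont and 188 with siBRAF, 16.3-fold lower. DDIT3 read 1420 and 143, 9.88-fold lower, and in normal medium 105 and 184 (0.81). PPP1R15A, whose product helps dephosphorylate eIF2α, read 1050 and 116 (-3.17), and 80.2 and 111 in normal medium (0.47). GDF15, a stress-induced hormone, read 556 and 38.3 (-3.82). Its 2 other probe sets lay below the array median on both arrays, and the 1 not shared between transcripts gave -0.54.

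TXNIP was the member of this list that was higher, at 257 with siCont and 2411 with siBRAF (3.23), and it restrains glucose uptake. ARRDC4, a relative of TXNIP on the glucose uptake list, read 27.5 and 187 (2.72). Both were similarly far apart in normal medium, at 3.73 and 2.89.

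Enzymes that make amino acids followed the same direction. Of 14 genes of serine, glycine and one-carbon metabolism 8 were lower and 0 higher (median -1.22). PHGDH, the first enzyme of serine synthesis, read 887 with siCont and 96.7 with siBRAF, 9.09-fold lower, and the next enzyme, PSAT1, read 2470 and 442 (-2.48). PSPH, the last of the 3 steps, was at -1.64. Some mitochondrial folate enzymes were lower too, with MTHFD2 at 4553 and 762 (-2.58), ALDH1L2 at 364 and 25.03 (-3.81, probe set mean -2.36) and SHMT2 at 1388 and 370 (-1.91). MTHFD1L, also a mitochondrial folate enzyme, was not among the genes at least 2-fold lower. Of the cytosolic and glycine cleavage branches, MTHFD1 (-0.79) and GLDC (0.87) were within 2-fold.

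Of 17 genes of asparagine, proline, glutamine and sulfur amino acid metabolism 7 were lower and 0 higher (median -0.57). ASNS, which makes asparagine with the amide nitrogen of glutamine, read 2949 with siCont and 117 with siBRAF, 24.97-fold lower, and 288 and 118 in normal medium (-1.28). This value comes from a probe set shared between transcripts, and the other probe set of ASNS lay below the array median on both arrays, at 2.74 and 2.67. CTH, which makes cysteine from cystathionine, read 826 and 46.9 (-4.11), and the transaminase gene GOT1 read 1295 and 158 (-3.02). CBS, the enzyme before CTH, read 396 and 38.2 (-3.34), with -0.24 from its probe set not shared between transcripts. GLUL, which makes glutamine, was at 0.07, and GLUD1, which releases ammonia from glutamate, at -0.57. PCK2, the mitochondrial enzyme that makes phosphoenolpyruvate, read 384 and 38.0 (-3.30).

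Of 18 amino acid transporters 7 were lower and 1 higher (median -0.51). SLC7A1, a carrier of arginine and lysine, read 2142 with siCont and 194 with siBRAF (-3.46). The glutamine carrier gene SLC38A1 read 1423 and 150 (-3.24, probe set mean -2.15), and SLC7A11, which imports cystine, 1062 and 145 (-2.87). SLC1A5, another glutamine carrier, read 557 and 139 (-1.99). SLC3A2, the partner chain of SLC7A11 and other carriers, read 2813 and 894 (-1.65), and 682 and 742 in normal medium (0.12). The 1 higher gene was SLC6A6, the taurine carrier, at 93.3 and 326 (1.79, or 0.56 as the mean of its probe sets).

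Aminoacyl-tRNA synthetases charge tRNAs, and separate genes mostly serve the cytosol and the mitochondria. Of 17 cytosolic members 11 were lower and 0 higher (median -1.37). WARS1 read 2097 with siCont and 347 with siBRAF (-2.59), GARS1 3609 and 876 (-2.04), and SARS1 2589 and 771 (-1.75). The cytosolic genes within 2-fold were VARS1 (-0.98), LARS1 (-0.83), FARSA (-0.83), HARS1 (-0.71), RARS1 (-0.30) and KARS1 (0.05). Of 15 mitochondrial members 1 was lower, MARS2 at 187 and 43.9 (-2.06), and 0 were higher (median 0.02). In normal medium 2 of the 17 cytosolic and 0 of the 15 mitochondrial genes were lower, with medians of -0.49 and -0.27. No test of the difference between the 2 families was made.

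**Figure D3:**
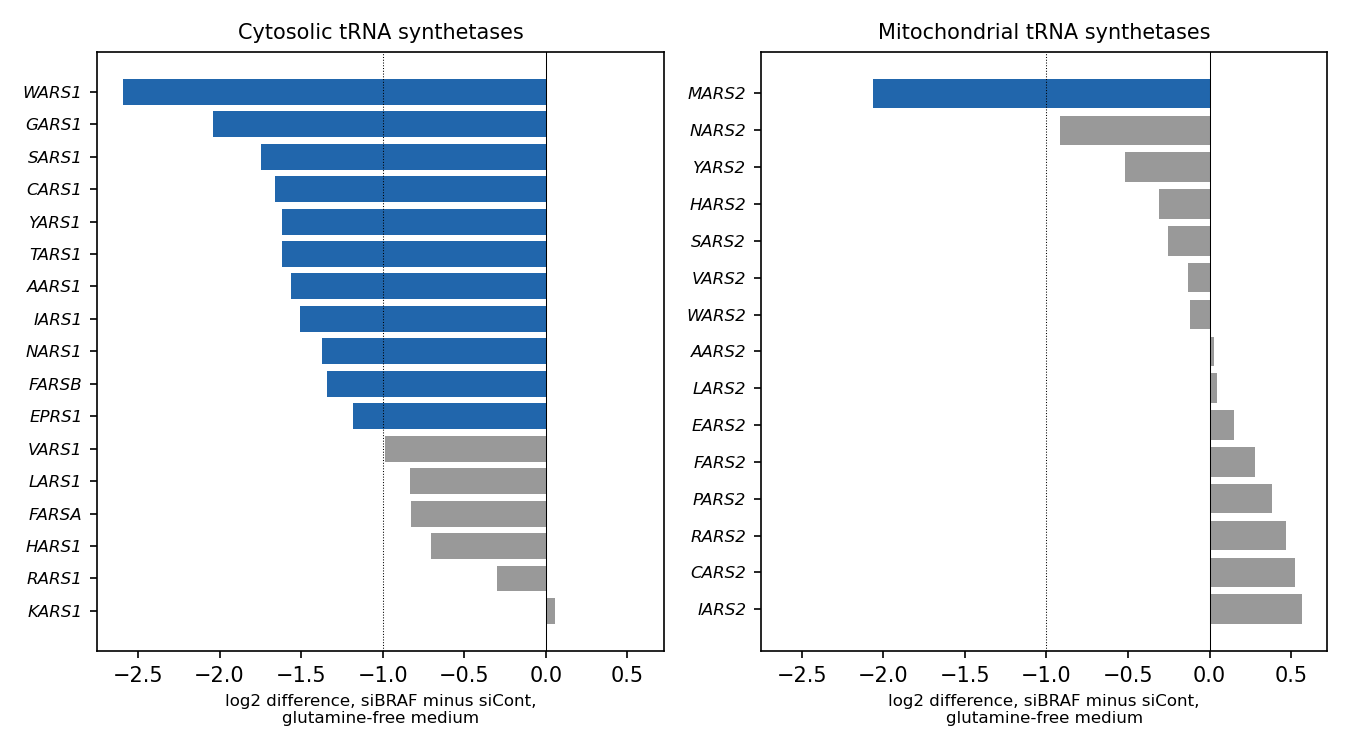
Log2 difference between siBRAF and siCont in glutamine-free medium (x axis, 1 array each) for each cytosolic (left) and mitochondrial (right) aminoacyl-tRNA synthetase gene (y axis), with at least 2-fold lower genes in blue and a dotted line at 2-fold. WARS1 (-2.59) and GARS1 (-2.04) lead the left panel, and MARS2 (-2.06) is the 1 blue bar on the right.

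Promoters of these stress genes were searched for the C/EBP-ATF element that ATF4 and its partners bind, written TGATGNAAN, on both strands, in RefSeq windows from 250 bases before to 50 bases after the gene start (GRCh38.p14). It was found in 6 of 14 cytosolic synthetase promoters (42.9%), 6 of 21 of the ATF4 and CHOP list (28.6%), 4 of 14 of the asparagine list (28.6%) and 1 of 13 of the serine list (7.69%), against 4.45% of 27305 genes. Among genes tested in the comparison, the share was 5.39% of 1187 lower, 2.58% of 8289 within 2-fold and 3.22% of 1398 higher genes. A match is a description of the letters and not of a bound site.

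The matches of 7 lower genes are shown here with 26 bases on each side, because their stretches carry the letters searched ahead of the gene start; the match is in capitals and, where it lies on the other strand, reads as the reverse complement. They were picked after the values were seen, and all lie between 42 and 210 bases before the start. CEBPG, an ATF4 partner, read 401 and 54.9 (-2.85), and CHAC1, which degrades glutathione, 144 and 20.0 (-2.78). BCAT1, which transaminates branched-chain amino acids, read 1399 and 334 (-2.06), and AARS1 1523 and 514 (-1.56). HERPUD1, of protein disposal in the endoplasmic reticulum, read 1769 and 704 (-1.33, or -0.77 as the mean of its probe sets). The windows are ASNS chr7:97872442-97872502 (minus strand), CHAC1 chr15:40953235-40953295 (plus), GOT1 chr10:99430789-99430849 (minus), BCAT1 chr12:24949115-24949175 (minus), CEBPG chr19:33374045-33374105 (plus), HERPUD1 chr16:56931939-56931999 (plus) and AARS1 chr16:70289660-70289720 (minus).
ASNS: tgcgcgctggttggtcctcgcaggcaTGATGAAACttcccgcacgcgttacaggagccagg
CHAC1: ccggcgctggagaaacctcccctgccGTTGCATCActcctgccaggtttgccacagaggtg
GOT1: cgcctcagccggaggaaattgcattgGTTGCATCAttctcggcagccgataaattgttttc
BCAT1: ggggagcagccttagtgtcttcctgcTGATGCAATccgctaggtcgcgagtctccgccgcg
CEBPG: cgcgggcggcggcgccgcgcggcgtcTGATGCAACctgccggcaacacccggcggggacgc
HERPUD1: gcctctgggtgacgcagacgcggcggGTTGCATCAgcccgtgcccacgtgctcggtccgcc
AARS1: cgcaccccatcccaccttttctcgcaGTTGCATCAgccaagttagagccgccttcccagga

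In CHAC1, GOT1, HERPUD1 and AARS1 the match reads as the same letters, GTTGCATCA, and lies on the other strand.

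Translation control and protein folding genes differed in a more mixed way. Of 16 genes of eIF2 kinases and translation brakes 5 were lower and 0 higher (median -0.36). Beside PPP1R15A these were EIF2B2 (706 and 189, -1.90) and EIF2B3 (-1.10), subunits of the eIF2 exchange factor, EIF4EBP1 (1081 and 302, -1.84), a repressor of cap binding, and EIF2S1 (-1.14), whose probe sets not shared between transcripts gave 0.043. The kinases EIF2AK3 (0.24) and EIF2AK4 (0.89), which encode PERK and GCN2, were within 2-fold.

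The unfolded protein response list had 3 of 20 genes higher and 2 lower (median 0.56, and 0.05 in normal medium). Such shares are near those of all genes. ERN1, which encodes the sensor IRE1, read 485 with siCont and 24.5 with siBRAF, 19.1-fold lower, and 30.3 and 32.8 in normal medium. Its 2 other probe sets, both above the array median, gave -0.10 and -0.74, and the probe set mean was -1.70. The chaperone genes CALR (615 and 1754, 1.51), CRELD2 (213 and 510, 1.26) and DNAJC3 (1.22, or 0.92 as the mean of its probe sets) were the 3 higher genes. HERPUD1, shown above, was the other lower gene. HSPA5, the chaperone BiP, read 5270 and 4249 (-0.31), and its second probe set gave 1.27.

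Some genes that restrain the growth kinase complex mTORC1 were higher. Of 17 members 6 were higher, 1 lower and 10 within 2-fold (median 0.65, and 0.71 in normal medium). The Sestrins split: SESN3 read 9.36 with siCont and 230 with siBRAF (4.48, probe set mean 1.80), from a value below the array median, and SESN1 read 48.3 and 249 (2.34). SESN2 was the 1 lower gene, at 764 and 208 (-1.88), although in normal medium it read 50.3 and 227 (2.15). DEPTOR, a subunit that inhibits mTOR, read 23.6 and 157 (2.68, probe set mean 1.31), and the arginine sensor gene CASTOR1 20.8 and 83.6 (1.96).

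FOXO factors are held out of the nucleus by the kinase AKT and turn on genes of quiescence when released. Of 18 FOXO and PI3K target genes 10 were higher and 1 lower (median 1.33), and in normal medium 6 were higher and 1 lower (median 0.52). TRIB2, which restrains FOXO3, read 35.7 with siCont and 277 with siBRAF (2.92) without glutamine, but 506 and 244 in normal medium (-1.05). PIK3R1, the regulatory subunit of PI3 kinase, read 76.4 and 357 (2.21), and YPEL3, a growth-suppressing gene, 26.3 and 143 (2.40, probe set mean 1.36). IRS1, an insulin receptor substrate, read 30.7 and 200 (2.66, probe set mean 1.72), and 149 and 171 in normal medium (0.20). Its relative IRS2 read 1142 and 3324 (1.54), and was as far apart in normal medium (1.48). KLF6 was the 1 lower gene on the FOXO list, at 963 and 236 (-2.02). Of 10 IGF binding protein and related genes 3 were higher and 1 lower, with IGFBP5 at 35.02 and 263 (2.87, probe set mean 1.27) and IGFBP3 at 1410 and 193 (-2.86).

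Among 28 autophagy and lysosome genes 3 were lower and 3 higher (median 0.06). These shares are near those of all genes. The lower genes were of the autophagosome, as are ATG5 (-0.62), ATG7 (-0.82) and BECN1 (-0.22), which were within 2-fold. ATG12 read 2664 with siCont and 437 with siBRAF (-2.61), MAP1LC3B 2201 and 659 (-1.74), and ATG16L1 was at -1.29, or -0.41 as the mean of its probe sets. The higher genes were lysosomal, as are LAMP1 (0.20) and CTSB (-0.01), which were within 2-fold. Other probe sets of CTSB ran from -0.08 to 1.04. CTSA read 476 and 1806 (1.92), CTSD 52.0 and 158 (1.59), and LAMP2 426 and 949 (1.15). In normal medium ATG12 (-0.35) and MAP1LC3B (0.12) were within 2-fold.

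Mitotic genes were lower with siBRAF also without glutamine. Of 42 members 33 were at least 2-fold lower and 0 higher (median -1.77), while in normal medium all 42 were lower (median -2.76). NDC80, of the kinetochore, read 239 with siCont and 38.4 with siBRAF (-2.61), and TOP2A, the topoisomerase of dividing cells, 618 and 132 (-2.22). UBE2C, which works with the anaphase-promoting complex, read 1195 and 245 (-2.28), and AURKB, a kinase of chromosome segregation, 196 and 39.7 (-2.28). The probe set means of TOP2A and AURKB were -1.43 and -1.04. In bulk RNA, fewer cells in mitosis and less RNA per cell cannot be told apart.

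For some mitotic genes the siCont value without glutamine was itself low. KIF20A, a kinesin of cytokinesis, read 74.9 with siCont and 76.9 with siBRAF (0.04), against 655 and 90.3 in normal medium (-2.85). CCNB1, the mitotic cyclin, read 485 and 213 (-1.18), and 1744 and 239 in normal medium (-2.86). NDC80 did not show this, with 239 and 282 in siCont cells without and with glutamine. The 9 members within 2-fold ran from PLK1 (-0.95) to KIF20A.

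Mitotic promoters commonly hold a CHR element, TTTGAA, where the DREAM complex binds, and CCAAT boxes. Searched on both strands in the same windows, TTTGAA was found in 26 of 36 mitosis promoters (72.2%, against 18.2% of 27305 genes) and CCAAT in 30 of 36 (83.3%, against 39.7%). CCAAT was about as frequent in lower (45.9%) as in higher (45.4%) and other (42.2%) tested genes. Among tested genes TTTGAA was found in 19.5% of 1187 lower and 13% of 8289 genes within 2-fold, and in 217 of 1398 higher genes. The element is shown in capitals, with 26 bases on each side, for 5 lower genes in which it lies 34 to 69 bases before the start, picked after the values were seen because they show the element in the orientation searched. They are CDC20 (chr1:43358890-43358947, plus strand; 506 and 156, -1.69), CDK1 (chr10:60778383-60778440, plus; 704 and 203, -1.79), KIF23 (chr15:69414268-69414325, plus; 168 and 40.4, -2.03), KIF4A (chrX:70290044-70290101, plus; 156 and 37.4, -2.04) and MKI67 (chr10:128126439-128126496, minus; 144 and 36.2, -1.96).
CDC20: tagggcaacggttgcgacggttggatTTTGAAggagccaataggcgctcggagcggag
CDK1: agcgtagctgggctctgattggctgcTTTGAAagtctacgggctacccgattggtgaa
KIF23: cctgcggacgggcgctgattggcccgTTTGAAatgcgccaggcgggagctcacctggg
KIF4A: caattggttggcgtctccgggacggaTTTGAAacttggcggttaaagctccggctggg
MKI67: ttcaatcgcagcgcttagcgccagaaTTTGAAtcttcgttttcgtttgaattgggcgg

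CDC20 encodes the activator of the anaphase-promoting complex, CDK1 the kinase that starts mitosis, KIF23 and KIF4A kinesins of the late spindle, and MKI67 the proliferation marker Ki-67. The searched promoters of CDC20, CDK1 and MKI67 hold other TTTGAA matches, which are not shown.

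Of 39 DNA replication genes 14 were lower and 1 higher (median -0.73), against 34 lower and 0 higher in normal medium (median -1.85). The ribonucleotide reductase subunits RRM1 (1131 and 292, -1.95) and RRM2 (1281 and 349, -1.87) were lower, as was the helicase factor CDC45 (99.1 and 25.1, -1.94). PCNA, the sliding clamp, was the 1 higher gene, at 568 and 1138 (2.002-fold), with 1895 and 1060 in normal medium (-0.84). An E2F core, TTTGGCGC or TTTCCCGC on either strand, was found in 17 of 35 replication promoters (48.6%) and in 2.75% of all 27305 genes, and among tested genes in 5.31% of lower, 4.32% of those within 2-fold and 3.15% of higher ones. For the cytokine and chemokine list the TRE core, TGANTCA, was searched in the same windows. It was found in 4 of 16 promoters (25%), against 9.37% of 27305 genes. Among tested genes it was found in 8.42% of lower, 7.23% of those within 2-fold and 9.23% of higher ones.

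The G1 list was mixed. Of 21 genes 4 were higher and 5 lower, and 3 of the 4 higher genes were the CDK inhibitors CDKN1A (1050 and 3432, 1.71), CDKN1B (354 and 995, 1.49) and CDKN1C (156 and 421, 1.42), which encode p21, p27 and p57. The fourth was the cyclin CCNE2, at 24.4 and 51.8 (1.06, or 0.84 as the mean of its probe sets), although it read 233 and 46.4 in normal medium (-2.30). CCND1, the cyclin D1 gene induced by ERK, read 817 and 289 (-1.50), and 835 and 287 in normal medium (-1.53). CDK2 read 451 and 132 (-1.76). The other 3 lower genes were E2F7 (909 and 220, -2.04), CDC25A (-1.53) and RBL1 (-1.10).

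Histone genes were higher in part. Of 12 histone genes 5 were higher and 0 lower, namely H2BC4 (3.04, from a siCont value of 8.83, below the median), H2BC21 (66.8 and 301, 2.15), H2BC12 (453 and 1945, 2.10), H2BC5 (1.61) and H1-2 (468 and 1137, 1.28). Histone genes are near-identical copies, so probe sets may read several of them. In normal medium 8 were higher and 2 lower.

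MYC partners stayed mostly within 2-fold, as did most genes tested. Of 11 MYC network genes 1 was higher, 2 lower and 8 within 2-fold, near the share of all genes. Beside MYC the lower gene was MXD1, an antagonist of MYC, at 413 and 55.5 (-2.87), with 33.5 and 51.1 in normal medium (0.59). The higher gene was MLXIP (1.27, or 0.80 as the mean of its probe sets). Of 21 ribosome biogenesis genes 7 were lower and 0 higher (median -0.87), led by WDR43 (512 and 148, -1.79) and NOP58 (1697 and 494, -1.78). Of 30 mitochondrial ribosome genes 1 was lower, MRPS10 (-1.03), and 0 higher. Of 17 nucleotide synthesis genes 4 were lower and 0 higher. These were the purine enzymes GART (715 and 203, -1.81, probe set mean -1.05), PFAS (458 and 174, -1.39) and ATIC (1372 and 569, -1.27), and CTPS1 (-1.05), which makes CTP with nitrogen from glutamine.

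Targets of the tumor suppressor p53 lay on both sides, more of them higher. Of 21 members 10 were higher and 5 lower (median 0.98). TP53INP1, an autophagy and stress factor, read 59.7 with siCont and 960 with siBRAF (3.99, probe set mean 1.60), the RNA-binding protein gene ZMAT3 91.8 and 730 (2.98), and the repair gene DDB2 167 and 689 (2.04). The lower genes were PMAIP1 (1749 and 87.5, -4.31), GADD45A (5350 and 923, -2.53), SESN2, PLK3 (-1.86) and AEN (-1.04). GADD45A read 544 and 935 in normal medium (0.78).

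In the BCL2 family, which sets the threshold for apoptosis, 3 of 18 genes were higher and 5 lower. Members that promote death lay on both sides: PMAIP1, which encodes NOXA, and BIK (194 and 29.1, -2.70) were lower, while BMF (19.1 and 110, 2.47), BAX (266 and 761, 1.51) and BAD (1.05) were higher. The 3 other lower genes protect cells, namely MCL1 (5370 and 1065, -2.33), BCL2A1 (162 and 37.6, -2.08) and BCL2L2 (-1.45). BCL2A1 read 31.5 and 56.6 in normal medium (0.83).

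Interferon-stimulated genes were higher with siBRAF. Of 38 members 22 were at least 2-fold higher and 1 lower (median 1.16), and in normal medium 24 were higher and 1 lower (median 1.15). IFIT1, which binds foreign RNA, read 6.58 with siCont and 155 with siBRAF (4.37), and 45.3 and 212 in normal medium (2.20). TRIM22, an antiviral ubiquitin ligase, read 4.39 and 200 (5.22), and IFI44L 5.70 and 76.3 (3.53), both from siCont values below the array median, as IFIT1 was. ISG20, an RNA exonuclease, was the 1 lower gene, at 1076 and 244 (-2.14).

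The core of the ISRE, to which interferon-activated factors bind, is a pair of GAAA runs with 2 free bases between them. It was found on either strand in 23 of 31 promoters of the list (74.2%), against 4.38% of 27305 genes. Among tested genes it was found in 5.87% of 1398 higher, 3.64% of 8289 within 2-fold and 3.03% of 1187 lower genes. The match of 4 higher genes is shown in capitals with 26 bases on each side, 51 to 107 bases before the start, again picked after the values were seen, to show the pair of runs ahead of the start. They are IFIT1 (chr10:89392494-89392555, plus strand), ISG15 (chr1:1013364-1013425, plus), IFI6 (chr1:27672250-27672311, minus) and IFIT3 (chr10:89332452-89332513, plus).
IFIT1: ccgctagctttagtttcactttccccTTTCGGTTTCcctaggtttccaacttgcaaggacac
ISG15: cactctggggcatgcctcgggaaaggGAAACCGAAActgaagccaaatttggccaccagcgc
IFI6: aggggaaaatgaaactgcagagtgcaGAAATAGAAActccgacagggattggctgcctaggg
IFIT3: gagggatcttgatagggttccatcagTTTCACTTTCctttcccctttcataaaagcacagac

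ISG15, a ubiquitin-like protein gene, read 85.9 with siCont and 370 with siBRAF (2.10), IFI6 48.2 and 334 (2.77), and IFIT3 57.0 and 345 (2.58). The matches in IFIT1 and IFIT3 lie on the other strand and read as the reverse complement. Searched promoters of IFIT1, ISG15, IFI6 and IFIT3 all hold other matches, which are not shown.

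Genes of antigen presentation by MHC class I were somewhat higher. Of 19 members 7 were higher and 0 lower (median 0.85), close to the fold used. HLA-B read 1630 with siCont and 3627 with siBRAF (1.15), HLA-C 1583 and 3455 (1.13), and the peptide transporter gene TAP1 130 and 266 (1.03). HLA genes are similar in sequence, and probe sets may read several of them. The others were CALR, the class I activator NLRC5 (24.2 and 53.2, 1.10), the immunoproteasome subunit PSMB9 (145 and 297, 1.03) and HLA-F (1.01). TAP1, NLRC5 and PSMB9 came within 2-fold with log2(intensity + 16), as did CTPS1 and HSD17B7 of other lists.

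Of 14 genes of immune checkpoints and complement protection 4 were lower and 1 higher. CD274, which encodes the T cell inhibitor PD-L1, read 522 with siCont and 12.6 with siBRAF (-5.26), and 17.3 and 8.17 in normal medium (-0.997), with both siBRAF values below the array median. Its other probe set gave -4.02. NT5E, which makes adenosine, read 757 and 33.8 (-4.44), and CD55, which breaks up complement enzymes, 1912 and 162 (-3.56). PVR was at -1.13, and its relative NECTIN2 was higher, at 77.2 and 193 (1.31).

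Neural crest genes, markers of the embryonic origin of melanocytes, were higher in part. Of 22 members 10 were higher and 3 lower (median 0.71), and in normal medium 7 of 23 were higher and 3 lower (median 0.25). SOX2, a stem cell transcription factor, read 20.3 with siCont and 1155 with siBRAF (5.76, probe set mean 2.69), and 228 and 1269 in normal medium (2.47). FOXD3, a neural crest factor, read 28.8 and 451 (3.92, probe set mean 2.28), and NGFR, the nerve growth factor receptor that marks crest stem cells, 16.9 and 222 (3.64). SOX5 read 136 and 1403 (3.36) without glutamine and 984 and 1282 in normal medium (0.38). The 3 lower genes were EGFR, AXL and ZEB1 (-1.72), while ZEB2 was higher (43.3 and 307, 2.80).

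Of 19 melanocyte lineage genes 6 were higher and 4 lower (median 0.22). S100B, a calcium-binding protein, read 110 with siCont and 1050 with siBRAF (3.25, probe set mean 1.69), and GPNMB, a melanosomal glycoprotein, 231 and 1817 (2.97). OCA2, a melanosomal channel gene of pigmentation, read 252 and 29.8 (-3.04). MITF (0.44) and SOX10 (-0.22) were within 2-fold.

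Cadherins and protocadherins, which join cells by contact of like molecules, had the highest median of any list. Of 17 members 12 were higher and 0 lower (median 2.06), and in normal medium 9 were higher and 0 lower (median 1.09). CDH19, a crest and Schwann cell cadherin, read 204 with siCont and 1449 with siBRAF (2.82), and N-cadherin, CDH2, 329 and 979 (1.57). The largest differences rested on siCont values below the array median: CDH6 read 7.06 and 247 (4.95), PCDH10 14.3 and 444 (4.87), PCDH7 3.38 and 94.2 (4.44), PCDHB5 11.4 and 236 (4.26) and CDH10 11.6 and 238 (4.25). PCDH10, PCDH7 and PCDHB5 read 94.6, 47.9 and 126 in siCont cells in normal medium, above the median there. The probe set means of PCDH10 and PCDH7 were 2.97 and 2.47. PCDHB genes form a cluster of similar copies, which probe sets may not separate.

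Axon guidance genes, used by crest cells to find their way, were higher in 9 of 25 and lower in 4. SEMA3C, a secreted guidance cue, read 399 with siCont and 4069 with siBRAF (3.35). Its co-receptor NRP1 was lower, at 1029 and 171 (-2.58, probe set mean -1.14), as were EPHA2 (1517 and 286, -2.40), SLIT2 (176 and 47.8, -1.86) and PLXNA2 (-1.19).

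Matrix genes were higher in count, and proteases were divided. Of 27 matrix protein genes 13 were higher and 0 lower (median 0.79). CCN3, a matricellular protein gene, read 40.3 with siCont and 3372 with siBRAF, 81.7-fold higher, and OLFML2A 41.4 and 2904 (6.10). POSTN, which encodes periostin, read 11.1 and 984 (6.35), from below the median, with 4.69 and 286 from a second probe set and 0.77 from the brighter of those not shared between transcripts. MGP, an inhibitor of calcification, read 22.5 and 1818 (6.27), and its other probe set lay below the median on both arrays (0.57). LUM, a collagen-binding proteoglycan and fibroblast marker, read 12.5 and 388 (4.85), from a siCont value below the median, and 1.16 by its probe set not shared between transcripts.

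Of 18 collagen genes 8 were higher and 2 lower. COL5A2 read 414 and 5412 (3.71), and COL8A1 7.31 and 112 (3.77, probe set mean 1.49), from below the median. The 2 lower genes were COL13A1 (335 and 24.2, -3.74) and COL6A3 (122 and 9.57, -3.54), the latter with a siBRAF value below the median. The 2 other probe sets of COL13A1 gave -0.66 and -1.08. COL3A1 read 3.19 and 24.2 (2.59), also from below the median. Its probe sets not shared between transcripts gave -0.098, with values below the median on both arrays. Of 23 integrin and laminin genes 2 were higher, ITGA4 (1.78) and LAMA2 (1.11, or 0.85 as the mean of its probe sets), and 3 lower, ITGB3 (-4.05), LAMB3 (-1.77) and ITGA3 (-1.24), with the other probe sets of ITGB3 between -1.53 and -0.01. The integrin and laminin shares are near those of all genes.

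Of 20 matrix proteases and their inhibitors 8 were higher and 6 lower. MMP1, the interstitial collagenase, read 636 with siCont and 6.04 with siBRAF (-6.50), a value below the array median, so the size depends on background. MMP10 (49.1 and 6.68, -2.71, with siBRAF below the median) and MMP9 (-1.97) were lower too, and so was TIMP1 (-1.10). The inhibitor gene TIMP2 was higher, at 272 and 1864 (2.77), as was MMP15 (29.1 and 366, 3.61), whose probe set not shared between transcripts gave 0.11.

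Of 27 TGF beta and BMP genes 9 were higher and 6 lower. Several secreted ligands and traps were lower: INHBA, the activin A subunit, read 8107 with siCont and 881 with siBRAF (-3.20), FST, which traps activin, 1479 and 98.0 (-3.90), and BMP2 880 and 103 (-3.08). Among the higher genes were the BMP targets ID2 (63.2 and 523, 3.03) and ID1 (595 and 2565, 2.11). Of 19 targets of YAP and TEAD 2 were higher and 9 lower (median -0.60), while in normal medium 5 were higher and 1 lower (median 0.20). GADD45B, on this list, read 662 and 118 (-2.48) and 57.5 and 126 in normal medium (1.12), with -0.91 from its probe sets not shared between transcripts.

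Metabolic lists were mixed. Of 24 genes of glycolysis and glucose uptake 3 were higher and 2 lower (median -0.04), shares near those of all genes. The lower genes were the glucose carrier SLC2A3 (343 and 72.7, -2.22) and hexokinase HK2 (561 and 144, -1.96), and beside TXNIP and ARRDC4 the third higher gene was PFKFB2 (1.18, or 0.33 as the mean of its probe sets). Of 18 hypoxia factor targets 2 were higher and 6 lower, with STC1 (615 and 94.98, -2.68), ADM (512 and 97.5, -2.38) and VEGFA (987 and 284, -1.79) lower. Of 18 cholesterol synthesis genes LSS (1.31) and HSD17B7 (1.11) were higher and 0 lower. Of 22 genes of the TCA cycle the pyruvate dehydrogenase kinases PDK3 (1.80, probe set mean 1.01) and PDK4 (25.9 and 81.4, 1.61) were higher, and PCK2 and PDK1 (-1.19) lower. The TCA cycle shares too are near those of all genes. With the mean of probe sets, LSS (0.83), PDK4 (0.91) and PDK1 (-0.86) were within 2-fold.

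Of 18 NRF2 targets 5 were higher and 1 lower, SLC7A11. AKR1B10 (10.4 and 79.4, 2.82, with siCont below the median) and the export pump ABCC2 (37.1 and 250, 2.72) were the furthest apart of the higher ones. AKR1C1 (1.08) and AKR1C2 (1.31) became 0.14 and -0.20 with probe sets not shared between transcripts. Those probe sets lay below the array median on both arrays. PRDX1, at 1919 and 3846 (2.003-fold), was at the 2-fold line. Of 15 heat shock genes 4 were higher and 1 lower. The small chaperones CRYAB (13.5 and 209, 3.85, with siCont below the median) and HSPB1 (312 and 1600, 2.35) were higher, and so were DNAJA1 (623 and 1914, 1.62) and HSPB8 (1.55, or 0.29 from probe sets not shared between transcripts). HSPB1 read 1030 and DNAJA1 2044 in siCont cells in normal medium, where DNAJA1 was at -0.14. HSPA4 was at -1.14, but at 0.74 with probe sets not shared between transcripts.

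Outside these lists, the genes furthest lower in the comparison were LINC00973, a long noncoding RNA (797 with siCont and 13.6 with siBRAF, -5.78), ESM1, an endothelial proteoglycan gene (344 and 7.07, -5.42), MAFF, a small MAF factor (3141 and 75.3, -5.36), RAB39B (360 and 8.09, -5.31) and the cyclin CCNA1 (292 and 9.31, -4.83). In LINC00973, ESM1, RAB39B and CCNA1 the siBRAF value lay below the array median. RAB39B read 11.9 and 8.46 in normal medium, below the median on both arrays. GASK1B read 7.80 and 1234 (7.13), from below the median, so that its size depends on background. MOXD1, a relative of dopamine hydroxylase (27.2 and 2374, 6.40), NREP (56.0 and 2757, 5.60), TMEM47 (30.4 and 1201, 5.26), the transcription factor MAF (45.4 and 1528, 5.04) and the Wnt inhibitor family member DKK3 (74.95 and 1922, 4.66) were above the median on both arrays. By probe sets not shared between transcripts NREP was at 2.26, MAF at 2.85 and DKK3 at 2.09. LGR4, at 4.42 and 206 (5.25), had -0.035 from its probe sets not shared between transcripts.

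Set beside the pair in normal medium, the differences without glutamine had an SD across genes of 1.02, against 0.80. Of 13131 genes measured in both pairs, 732 were higher in both and 565 lower in both. A further 971 genes were higher and 837 lower without glutamine while within 2-fold in normal medium, and 198 and 412 were so in normal medium only. The 2 siBRAF arrays differed little from each other, with an SD of 0.19 across genes, whereas the 2 siCont arrays had an SD of 0.72 and 13% of 13355 genes past that fold. Between the media the knockdown difference itself was at least 2-fold apart in the positive direction without glutamine for 1008 genes and in the negative direction for 728, which was not tested.

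**Figure D4:**
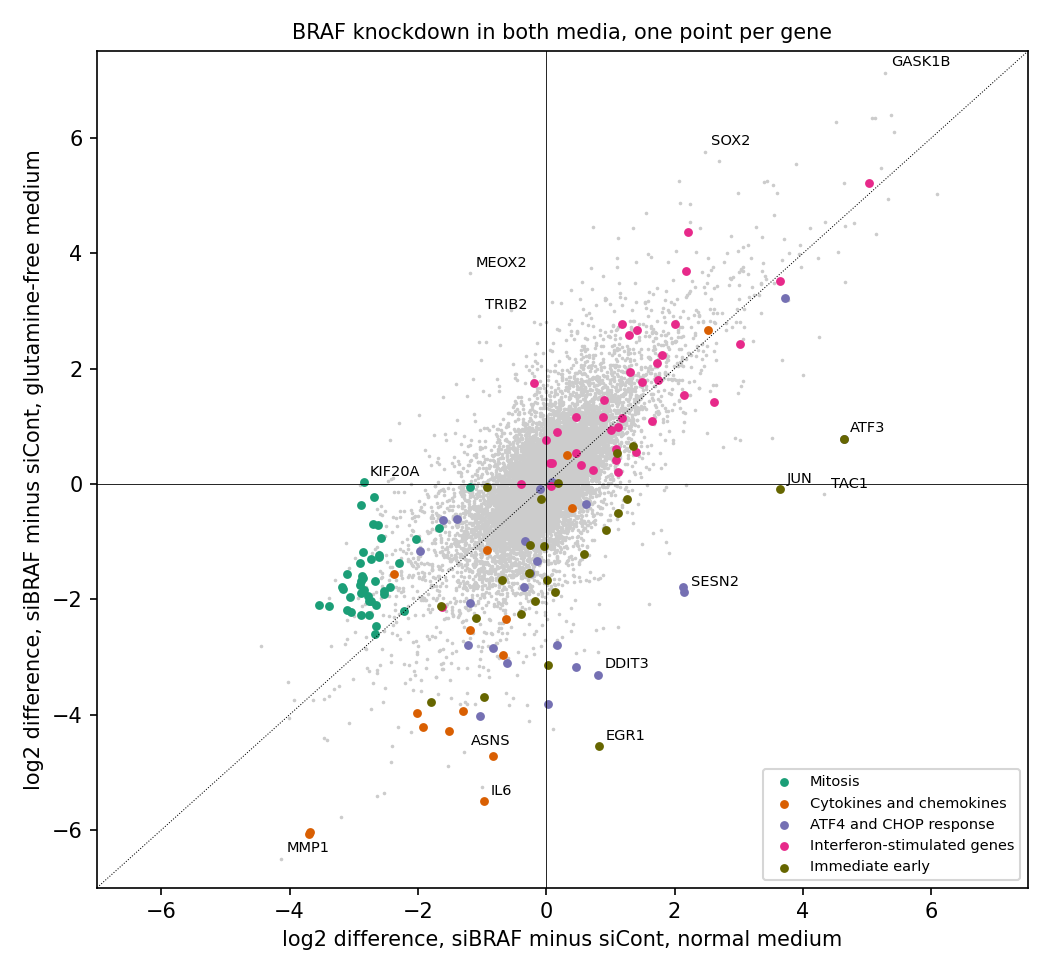
Each point is a gene placed by its log2 difference between siBRAF and siCont in normal medium (x axis) and in glutamine-free medium (y axis), 1 array per condition, with 5 gene lists in colour and the dotted line marking equal values. All mitotic genes lie above the line (medians -2.76 and -1.77), immediate early and ATF4 and CHOP genes mostly below it, and interferon genes on both sides (medians 1.15 and 1.16).

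In 20 genes the knockdown difference was at least 2-fold in opposite directions. NUPR1, a stress-induced cofactor, read 232 with siCont and 66.5 with siBRAF without glutamine (-1.79) and 15.7 and 71.7 in normal medium (2.12). MEOX2, a homeobox gene, read 11.2 and 153 without glutamine (3.66) and 290 and 126 in normal medium (-1.19), with the first siCont value below the array median and 0.0645 without glutamine from the probe set not shared between transcripts. B4GAT1, a glycosyltransferase gene, read 23.9 and 135 (2.46, probe set mean 1.16) and 255 and 122 (-1.05). In NUPR1, as in SESN2 and GADD45B, the siCont values spanned a wider range than the siBRAF values, and the same held for MEOX2, TRIB2, B4GAT1 and CCNE2 with the order of the siCont arrays turned. The genes most positive without glutamine relative to normal medium included LRRC17 (4.46 and 0.72) and DIXDC1 (3.02 and -0.55), both from siCont values below the median and with probe set means of 2.24 and 1.43 without glutamine. TAC1, the substance P precursor, was among the most negative, at 806 and 716 without glutamine (-0.17) and 10.5 and 231 in normal medium (4.34).

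Where a gene had several probe sets, they mostly pointed the same way. Of the 3193 genes at least 2-fold apart without glutamine, 1685 had 2 or more probe sets that reached the median. In 1467 of these (87.1%) all probe sets had the same direction, and in 833 (49.4%) all were at least 2-fold apart.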

How the data were processed

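RNA of A375 cells was measured on 8 Affymetrix human arrays, 1 per condition, from 5 ug of total RNA each. The values are intensities on a linear scale that the authors made with RMA, per the submitters' processing notes, and its version is not given in the sources used here. Of 54675 probe sets, 62 are controls, 41091 have exactly 1 symbol in the platform annotation, 1801 several and 11721 none. Symbols of 41037 were updated by gene ID through RefSeq. This gave 19775 genes, each represented by the brightest of its probe sets, judged by the mean of all 8 arrays.

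No further normalization was applied before taking log2(intensity + 1). A pair was compared for a gene once its brighter value was at or above the array median, and genes at least 2-fold apart were counted. There are no replicates, so no test was run and no p-value is given. The number of arrays limits the precision. Members, gene lists (48 lists and 4 marker lists, 1124 entries, 1036 of them on the array) and motifs were chosen with earlier results of these data known. Named genes were the 15 highest and 15 lowest, the same among genes at or above the median on both arrays, up to 6 per list with the largest differences at least 2-fold apart (the 2 largest where fewer than 2 were), ATF4, genes with a shown promoter, genes opposite between media and the 8 largest media differences each way. Other names complete a count of 5 or fewer or contrast with a named member, and were chosen after their values were seen. Promoter windows came from RefSeq on GRCh38.p14 and matched by symbol. Scripts ran in Python 3.11.15 with pandas 2.3.3 and numpy 2.4.6 and were checked on simulated data. Alternatives were another added constant, other filters, other choices of probe set and quantile normalization.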

Additional observations from a re-analysis of the deposited data

Results flagged for a closer look

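In 20 genes siBRAF and siCont were at least 2-fold apart in opposite directions in the 2 media, with 1 array per condition, and this difference was not tested. The first value of each pair is the log2 difference without glutamine and the second that in normal medium. Lower without glutamine and higher in normal medium were GADD45B (-2.48 and 1.12), CREB5 (-2.09 and 1.60), SESN2 (-1.88 and 2.15), NUPR1 (-1.79 and 2.12), HDAC9 (-1.20 and 1.91), SLFN5 (-1.03 and 1.48) and SSUH2 (-1.01 and 1.86). Higher without glutamine and lower in normal medium were MEOX2 (3.66 and -1.19), TRIB2 (2.92 and -1.05), B4GAT1 (2.46 and -1.05), EEIG2 (2.15 and -1.02), TFAP2B (1.82 and -1.14) and TMEM45A (1.73 and -1.41). The same order was seen for TSPAN12 (1.52 and -1.24), NRN1 (1.51 and -1.61), FGF13 (1.21 and -1.13), SHISA2 (1.19 and -1.99), FZD1 (1.10 and -1.40), KATNAL1 (1.10 and -1.11) and CCNE2 (1.06 and -2.30). Without glutamine the probe set means of HDAC9 (-0.05), TSPAN12 (0.08) and FZD1 (0.40) were within 2-fold. Those of CREB5 (-1.24), TFAP2B (1.05), MEOX2 (1.86) and B4GAT1 (1.16) were nearer to 0 but past 2-fold. SESN2 encodes a leucine sensor, GADD45B a stress-induced protein, CCNE2 a cyclin of the start of DNA replication and HDAC9 a histone deacetylase. The number of such genes was 20 with the chosen probe set and 10 with the mean of all probe sets.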

How the results depend on the processing

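No paired analysis was possible because the labels carry no replicate numbers and each condition has 1 array, and no array could be left out. The counts of genes higher (1226 to 1765) and lower (1129 to 1484) without glutamine stayed within 1.5 times the reported counts under all 7 alternatives, as did those in normal medium. The count of genes opposite between the media went from 20 to 12 with log2(intensity + 16), 12 with the 75th percentile filter and 10 with the mean of all probe sets. With only probe sets not shared between transcripts the sign turned for AKR1C2 (-0.20), COL3A1 (-0.10), EIF2S1 (0.043), HSPA4 (0.74), LGR4 (-0.035), MATN2 (-0.064), MERTK (-0.21) and RRP12 (0.080), and the cause was not tested. For AKR1C2 and COL3A1 these probe sets lay below the array median on both arrays. That setting brought 26 of 231 named genes within 2-fold, and the mean of all probe sets 30 of 281. Adding 16 brought 15 of 281 within 2-fold and quantile normalization 5. No list median of at least 2-fold changed sign under these alternatives. Where a value lies below the array median, signal over background limits the size of the fold.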
